A study of Mus musculus with 12 samples.

Results

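The genes described here are Nr4a1, Nr4a2 and Nr4a3, the 3 orphan nuclear receptors of the NR4A family, taken from the deposited tables by gene name. Each of the 3 tables held all 3 genes, among 41319, 42527 and 41667 loci in the 2 h, 24 h and 7 d tables, named for the time since the last injection. The tissue was the bilateral prefrontal cortex of C57BL/6 mice aged 10 weeks, injected intraperitoneally on 14 days with either saline or 20 mg/kg cocaine. The 6 groups were saline 2 h, cocaine 2 h, saline 24 h, cocaine 24 h, saline 7 d and cocaine 7 d, with 2 libraries per group and the tissue of 5 mice pooled in each library. All mice were injected daily, controls included, and no uninjected group was analysed here. The study asked how transcripts of this region move over withdrawal from repeated cocaine.

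For each locus and group the tables give 1 FPKM, a fragment count scaled to transcript length and to the mapped fragments, pooled by the authors over both libraries. No value per library was available, so none of the differences below has a replicate check and no test was run on them. The depth behind each FPKM is unknown from the tables. Fold changes are cocaine over saline of the same time point and are given on the scale of log2(FPKM + 0.1), which understates the change of low genes. Each time point is a table of its own, normalized by itself, so levels set side by side across time points are less comparable than both levels of 1 table.

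NR4A proteins are transcription factors whose activity is set mainly by how much of them is made, since no ligand is needed. They bind an extended half-site called the NBRE as monomers, and Nr4a1 (Nur77) and Nr4a2 (Nurr1) can also pair with retinoid X receptors. Their genes are immediate-early genes: neuronal activity, calcium and cyclic AMP switch them on through CREB bound to cyclic AMP response elements (CREs). Nr4a2 is in addition known as a factor for the identity of midbrain dopamine neurons, and in the cortex it marks deep-layer and claustral neurons.

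The promoters of the 3 genes are shown because CREs in promoters are known to switch on such genes. The sequences are RefSeq's on GRCm38.p6, 1 promoter per member, and the search covered 250 bases before the transcription start. A full CRE (TGACGTCA) was in none of the 3 windows, against 1.55% of all 32851 promoters. The CRE half-site, TGACG or CGTCA on the other strand, was found 4 times in each of the 3 windows, whereas 17.8% of all promoters had at least 1 and 0.137% (45 promoters) had 4 or more. The cutoff of 4 was the count of the members themselves, whose 3 promoters are among the 45, so these shares are a description. No set of promoters was matched to the members for base composition. A full CRE would count as a pair of overlapping half-sites. Among the promoters of genes whose mean FPKM was 1 or more at 2 h, 26.3% had at least 1 and 0.282% had 4 or more. Of 167 promoters of other genes past 1.5-fold higher at 2 h, 29.9% had at least 1 and 0 had 4 or more. For the 38 other fast activity-induced genes listed below, promoters were found for 28, with several promoters for some genes. These 50 promoters held at most 3 half-sites, and 52% of them had at least 1. Each site is printed 5′ to 3′ on the strand of the gene with 10 bases on either side, the half-site is in capitals, and the number is its first base counted from the transcription start.
Nr4a1 -233: gcgctccctgCGTCAatggaacccc
Nr4a1 -213: accccgcgtgCGTCAcgcgcgcaga
Nr4a1 -69: gggccgtgtgCGTCAgtggcgcccc
Nr4a1 -40: cctctccatgCGTCAcggagcgctt
Nr4a3 -231: aggaggagggTGACGtagcgtccca
Nr4a3 -213: cgtcccatgtCGTCAcattgacgtc
Nr4a3 -205: gtcgtcacatTGACGtctcgcattc
Nr4a3 -147: gtggcataaaTGACGtgccgagaga

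The 4 sites of Nr4a1 (window chr15:101266596-101266845, plus strand) all read tgCGTCA, and its window lies inside the locus as the tables draw it, which starts upstream. In Nr4a3 (window chr4:48045055-48045304, plus strand) 3 of the sites lie within a short stretch, and the site at -147 falls inside the locus as the tables draw it. The Nr4a2 window (chr2:57124004-57124253, minus strand) lies wholly outside its locus and is printed in full, again with the half-sites in capitals.
Nr4a2: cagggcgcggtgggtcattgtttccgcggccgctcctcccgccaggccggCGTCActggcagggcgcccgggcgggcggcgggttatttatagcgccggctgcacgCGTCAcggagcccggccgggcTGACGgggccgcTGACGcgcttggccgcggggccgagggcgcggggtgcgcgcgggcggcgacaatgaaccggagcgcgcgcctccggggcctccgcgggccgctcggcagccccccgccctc
The half-sites of Nr4a2 start at -200, -144, -123 and -111. A MEF2-type site at -167 of Nr4a2 was the only one in the 3 windows, against 2.92% of all promoters with one. Neither the NBRE (AAAGGTCA, or TGACCTTT on the other strand; 1.34% of all promoters) nor the serum response element (1.47%) was matched in the 3 windows. A match of letters is a description and does not show that a factor was bound.

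**Figure D1:**
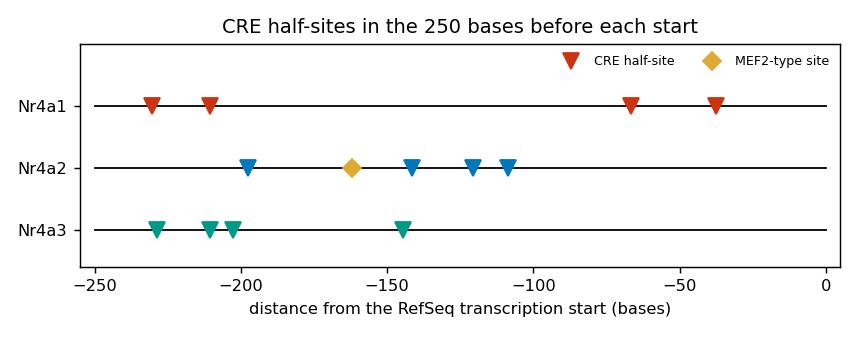
Positions of CRE half-sites (triangles) and of a MEF2-type site (diamond) in the 250 bases before 1 RefSeq transcription start of each member. The horizontal axis is the distance from that start in bases. Each gene has 4 half-sites, of which those of Nr4a2 and Nr4a3 all lie at -111 or farther from the start, while Nr4a1 has 1 at -69 and 1 at -40.

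At 2 h all 3 genes were higher in cocaine on the deposited scale, and 1 scaling, to the column sum over loci of 300 bases or more, turned Nr4a2 lower (log2 -0.33) as it moved the median of all loci by -1.39 (relative to that median Nr4a2 had 1.03). Nr4a1 had the highest level and the largest fold change of the 3. Nr4a1 (chromosome 15, 101254209 to 101274792 of GRCm38) was at 8.05 FPKM after saline and 36.7 after cocaine, a ratio of 4.56 (log2 2.17). Nr4a3 (NOR-1; chromosome 4, 48045153 to 48086449) was at 1.82 and 5.49 FPKM, a ratio of 3.02 (log2 1.54). Nr4a2 (chromosome 2, 57106830 to 57124003) was at 1.44 and 3.01 FPKM, a ratio of 2.09 (log2 1.01). All 3 members were past 1.5-fold higher, as were 2.54% of the 13804 loci whose mean FPKM was 1 or more, while 1.9% were past 1.5-fold lower. Ranked by log2 fold change among these loci, Nr4a1 was at place 84, Nr4a3 at 101 and Nr4a2 at 162. The cocaine value at 2 h lay above all 3 saline values of the series for each member, which was also so for 30.7% of 12471 genes whose mean FPKM was 1 or more in every table, a set that Nr4a3 misses through its level at 7 d. In such bulk tissue, a change in the number of cells of a type and a change in RNA per cell cannot be told apart.

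**Figure D2:**
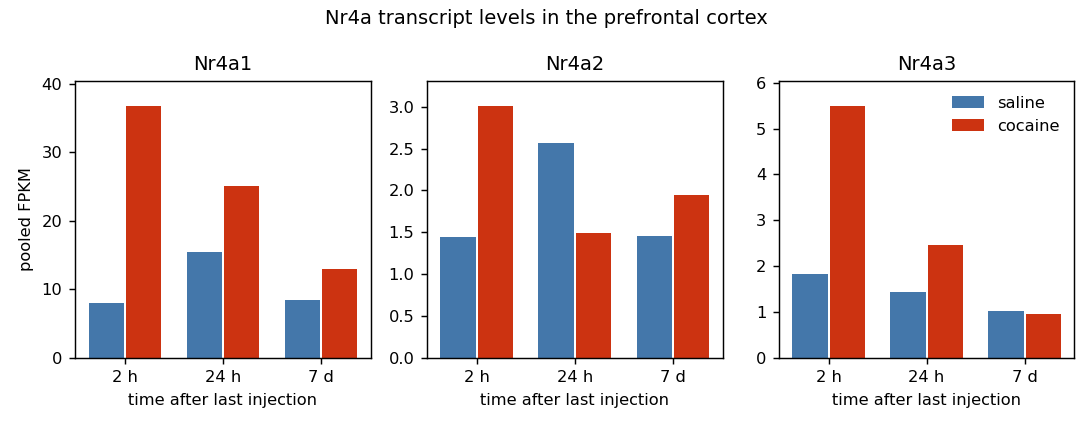
Pooled FPKM (vertical axes, each starting at 0 and differing between panels) of Nr4a1, Nr4a2 and Nr4a3 in saline (blue) and cocaine (red) at 2 h, 24 h and 7 d; each bar is 1 value pooled by the authors, so there are no error bars. On this deposited scale Nr4a1 is higher in cocaine at each time point (lower at 7 d when columns are scaled to the sum of all loci, and at 24 h when scaled to the sum of loci of 300 bases or more), Nr4a2 is lower in cocaine at 24 h, and Nr4a3 is nearly level at 7 d.

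At 24 h Nr4a1 and Nr4a3 were higher in cocaine and Nr4a2 was lower on the deposited scale, while the same scaling, which moved the median of all loci by -3.52, put all 3 lower. Nr4a1 was at 15.4 FPKM after saline and 25.02 after cocaine, a ratio of 1.63 (log2 0.70). Nr4a3 was at 1.44 and 2.46 FPKM, a ratio of 1.70 (log2 0.73). Nr4a2 lay on the other side, at 2.56 FPKM after saline and 1.49 after cocaine (log2 -0.74), so that saline was 1.72 times cocaine. The direction of every difference at 24 h rests on which deposited column is saline, which was read from headings that 12 of 14 genes matched at that time point and 0 matched with the columns exchanged. Past 1.5-fold higher were 2 of the 3 members and 1.91% of 14264 loci, and past 1.5-fold lower were 1 of the 3 and 1.65% of loci. Nr4a2 was at place 166 counted from the lowest fold change, and Nr4a3 and Nr4a1 were at places 212 and 223 counted from the highest.

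Of the 3 saline values of Nr4a2, that at 24 h was the highest. Saline Nr4a2 was at 1.44 FPKM at 2 h and 1.46 at 7 d, beside 2.56 at 24 h, and cocaine at 24 h was at 1.49. Set against the median of the 3 saline values, Nr4a2 in cocaine at 24 h had a log2 difference of 0.03, a comparison across separately normalized tables that was chosen after these values had been seen. Among 12471 genes whose mean FPKM was 1 or more in every table, 242 (1.94%) were past 1.5-fold higher at 2 h, and 23 of these, or 0.184% of all, were past 1.5-fold lower at 24 h. Apart from Nr4a2, the genes with this pattern were predicted genes with Gm names together with Mir6240, Nupr1l and the pseudogene Tma7-ps. None of the other nuclear receptors and activity genes described below was among them.

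At 7 d the differences were smaller, and Nr4a1, higher in cocaine on the deposited scale, was lower (log2 -0.90) when columns were scaled to the sum of all loci, which moved the median of all loci by -1.49. Relative to that median Nr4a1 stayed higher at 7 d (0.60), as it did at 24 h under the other scaling (0.64), where Nr4a2 stayed lower (-0.57). Nr4a1 was at 8.47 FPKM after saline and 12.9 after cocaine, a ratio of 1.53 (log2 0.60, just past the limit of 0.585). Nr4a2 was at 1.46 and 1.95 FPKM, a ratio of 1.33 (log2 0.39, and -1.04 when scaled to the sum of all loci). Nr4a3 was at 1.02 FPKM after saline and 0.965 after cocaine (log2 -0.08), and its mean of 0.994 FPKM was under the minimum of 1 set for counting. The 2 members over this minimum gave 1 past 1.5-fold higher, Nr4a1, against 1.73% of 13927 loci higher and 2.43% lower. Nr4a1 was at place 232 and Nr4a2 at place 498 from the highest fold change. A locus without a name that overlaps Nr4a1 in the 7 d table was at 0.181 FPKM after saline and 0.315 after cocaine, far under Nr4a1 itself, and no other locus overlapped a member in any table.

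**Figure D3:**
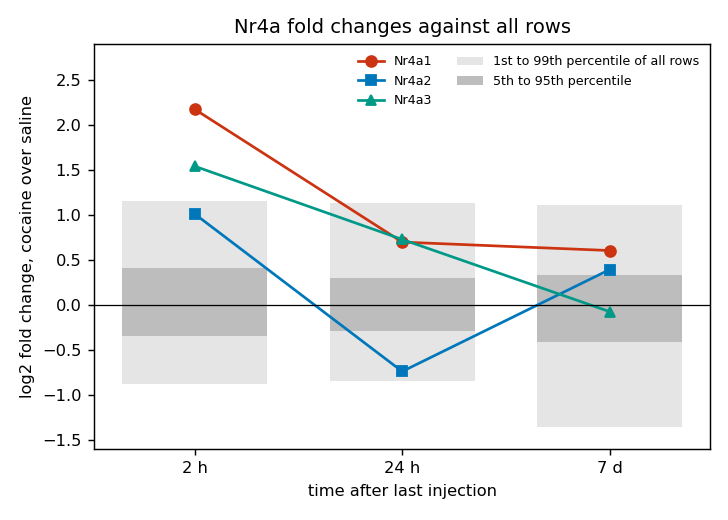
Log2 fold change of cocaine over saline (vertical axis, log2 of FPKM + 0.1) of the 3 members at 2 h, 24 h and 7 d on the deposited scale, with the 1st to 99th and 5th to 95th percentiles of all loci whose mean FPKM was 1 or more as grey bars. At 2 h Nr4a1 (2.17) and Nr4a3 (1.54) lie above the 99th percentile of 1.16 and Nr4a2 (1.01) below it, and at 24 h Nr4a2 (-0.74) lies on the opposite side of 0 from the other members.

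Nr4a1 was past 1.5-fold higher at all 3 time points, a pattern shared by 15 of the 12471 genes (0.12%). Those among the 15 with known roles in the activity response were Arc, Egr1, Fos and Nr4a1, and the rest were small RNAs (Mir320, Rny1, Rny3, mt-Tn) and gene models without a named function. Past it at both 2 h and 24 h were 56 genes (0.449%), of which 41 (0.329%) were not past it at 7 d, and past it at both 2 h and 7 d were 37 (0.297%). Nr4a3 was past the limit at 2 h and 24 h, and Nr4a2 in the higher direction at 2 h alone. With a pseudocount of 1, Nr4a1 at 7 d (log2 0.56) and Nr4a3 at 24 h (0.50) were not past the limit, and scaling to the sum of all loci put Nr4a1 at 7 d at -0.90. With a limit of 2-fold, all 3 members remained past it at 2 h and 0 did so at 24 h or 7 d.

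The saline groups themselves differed across the tables by amounts close to those differences. Nr4a1 in saline ran from 8.05 FPKM at 2 h through 8.47 at 7 d to 15.4 at 24 h, a range of 0.93 on the log2 scale, which is wider than its log2 fold changes of 0.70 at 24 h and 0.60 at 7 d. Nr4a1 in cocaine at 7 d (12.9 FPKM) lay below saline at 24 h. For Nr4a2 the saline range was 0.79 and for Nr4a3, from 1.02 FPKM at 7 d to 1.82 at 2 h, it was 0.77. The median range over the 12471 genes was 0.21, and 2.47%, 3.33% and 3.45% of them had a wider one than Nr4a1, Nr4a2 and Nr4a3. Because each table was normalized by itself, the part of time, pool and scaling in these ranges cannot be told apart.

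In cocaine the order over time was the same for Nr4a1 and Nr4a3. Nr4a1 went from 36.7 FPKM at 2 h to 25.02 at 24 h and 12.9 at 7 d, and Nr4a3 from 5.49 to 2.46 and 0.965. Nr4a2 instead had its lowest cocaine value at 24 h, with 3.01, 1.49 and 1.95 FPKM. Cocaine at 24 h was above all 3 saline values for Nr4a1 and Nr4a3 (28.9% of the 12471 genes) and not for Nr4a2, and cocaine at 7 d was above all 3 for none of the members (13.5% of genes). With no spread between libraries, which neighbours in these orders differ could not be tested.

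Since FPKM is per length, levels can also be set between the members. Nr4a1 was the most abundant in all 6 groups, at 71.2% of the summed FPKM of the family in saline at 2 h and 86.4% in cocaine at 24 h. The family sum was 11.3 FPKM after saline and 45.2 after cocaine in the 2 h table. It was 19.4 and 28.97 in the 24 h table, and 10.95 and 15.8 in the 7 d table. The order of Nr4a2 and Nr4a3 was not the same in all groups. Nr4a3 was the higher of the pair in both groups at 2 h and in cocaine at 24 h, whereas Nr4a2 was the higher in saline at 24 h and in both groups at 7 d, with Nr4a2 to Nr4a3 ratios between 0.548 and 2.02.

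Of the 46 other nuclear receptors, 29 had a mean of 1 FPKM or more at 2 h. Only Rara, the retinoic acid receptor alpha, was past 1.5-fold higher, at 1.66 FPKM after saline and 3.61 after cocaine (log2 1.07), and none was past 1.5-fold lower. Its fold change was above that of Nr4a2 and below those of Nr4a1 and Nr4a3. These receptors had median log2 fold changes of 0.10, 0.00 and 0.05 in the 2 h, 24 h and 7 d tables, against 0.02, 0.01 and -0.01 over all loci. None of the 28 receptors counted at 24 h and of the 29 counted at 7 d was past 1.5-fold in either direction. Over all counted loci 2.54%, 1.91% and 1.73% were past 1.5-fold higher at 2 h, 24 h and 7 d, and 1.9%, 1.65% and 2.43% lower. The receptor counts lie near those shares. The retinoid X receptors, known partners of Nr4a1 and Nr4a2, differed by at most 0.30 on the log2 scale. Rxrb was the most abundant, at 25.4 FPKM after saline and 27.2 after cocaine at 2 h, and Rxra was at 3.69 and 4.56 at 7 d.

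All 16 listed factors known to act on Nr4a genes had a mean of 1 FPKM or more, and 0 was past 1.5-fold at any time point. The list holds CREB family members, their CRTC and p300/CBP coactivators, MEF2 factors, and serum response factor with its partners. Of these, Elk1 and Elk4 were each read from a locus shared with another gene, so the values are not theirs alone. The largest log2 fold change in it was 0.48, that of Srf at 2 h, from 9.92 to 13.8 FPKM. Median values were 0.12, 0.06 and 0.14 at 2 h, 24 h and 7 d. Of the coregulators of nuclear receptors 11 were counted, and 0 was past 1.5-fold at any time point. With so few genes, counts of 0 in both lists lie near the shares of all loci given above.

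Among 16 genes reported as NR4A targets in various cell types, 12 had a mean of 1 FPKM or more at each time point. At 2 h Gadd45b, a gene of the DNA damage and demethylation response that is itself activity-induced and stands on the activity list too, was past 1.5-fold higher, at 5.29 FPKM after saline and 9.04 after cocaine (log2 0.76). At 24 h none was past the limit, and at 7 d Pomc, the precursor of ACTH and endorphin, was past 1.5-fold lower, at 1.66 and 1.01 FPKM (log2 -0.66). Bdnf, a neurotrophin, was at 7.55 and 8.05 FPKM at 2 h. Among 12 genes, 1 or 0 past the limit lies near the shares of all loci given above. The medians of the list were 0.10, -0.05 and -0.10. Th, the rate-limiting enzyme of dopamine synthesis and a known target of Nr4a2, lay under the minimum for counting, at 0.293, 0.433 and 0.392 FPKM after saline and 0.112, 0.192 and 0.214 after cocaine in the 2 h, 24 h and 7 d tables. All 3 cocaine values of Th were below all 3 saline values, as in 6.63% of the 3305 genes whose mean FPKM lay between 0.1 and 1 in every table.

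Of the 5 gene lists, the other fast activity-induced genes had the median closest to the members at 2 h. Of 36 counted at 2 h, 25 were past 1.5-fold higher and 0 lower, with a median log2 fold change of 1.06. Arc (log2 3.77), Egr2 (3.36), Fos (2.76) and Junb (2.43) had larger fold changes than Nr4a1, 6 of the 36 exceeded Nr4a3, and 19 exceeded Nr4a2. Arc, a regulator of synaptic AMPA receptors, read 5.59 FPKM after saline and 77.8 after cocaine. Fos, a subunit of AP-1, read 2.02 and 14.3 FPKM, and the zinc finger factor Egr1 read 41.9 and 121.4. Phosphatases that switch off MAP kinases had log2 fold changes between those of Nr4a1 and Nr4a2, of 2.03 for Dusp1, 1.83 for Dusp4, 1.299 for Dusp5 and 1.198 for Dusp6. Npas4, a factor induced by calcium influx in neurons, had 1.09, next to the 1.01 of Nr4a2. At 24 h 10 of 36 were past 1.5-fold higher and 0 lower, and all 36 had a higher fold change than Nr4a2; the lowest was -0.42 for Egr3, at 51.9 FPKM after saline and 38.8 after cocaine. At 7 d 5 of 34 were past 1.5-fold higher, namely Arc, Fos, Cyr61, Egr1 and Dusp1, and 0 lower. Past 1.5-fold higher over all counted loci were 2.54%, 1.91% and 1.73% at 2 h, 24 h and 7 d. The activity genes had been seen in these data before the list was written, so their counts are a description. In saline, 25 of 34 such genes (73.5%) had their highest value at 24 h, as Nr4a1 and Nr4a2 did, against 37.5% of all genes. The same was so for 63% of 27 other nuclear receptors, 83.3% of 6 oligodendrocyte markers and 100% of 6 vascular markers.

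**Figure D4:**
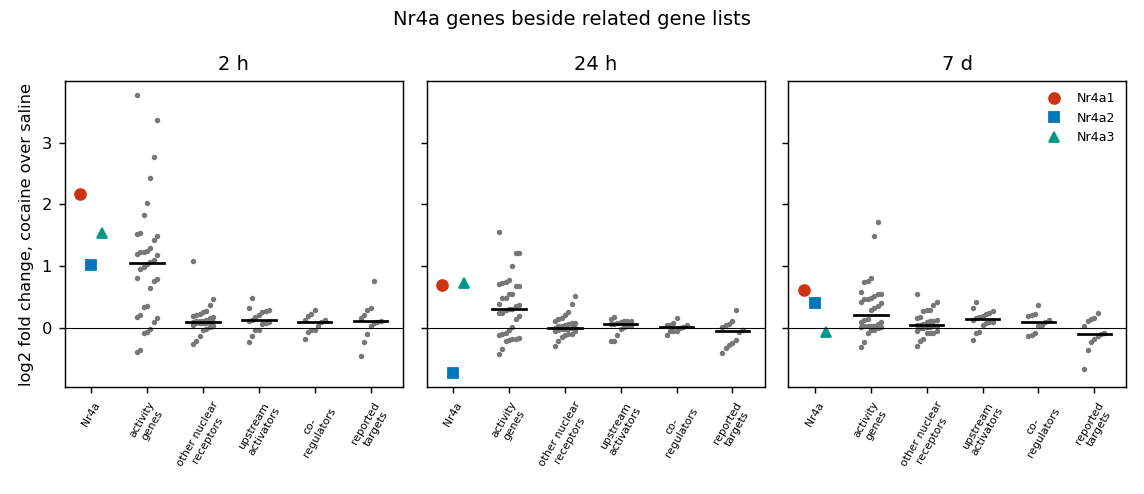
Log2 fold change of cocaine over saline (vertical axis) at 2 h, 24 h and 7 d for the 3 members (coloured symbols) and for 5 gene lists (grey dots, 1 per gene whose mean FPKM was 1 or more; black line, median). At 2 h the members lie within the range of the activity genes, and Rara (1.07) is the 1 high dot among the other nuclear receptors. At 24 h Nr4a2 lies below every dot of the 5 lists, which leave out genes under the minimum such as Th.

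The genes with a pattern closest to each member were found by the Euclidean distance between their 3 log2 fold changes. For Nr4a1 the 5 closest were Junb (distance 0.288), Dusp1 (0.29), Dusp4, Gm12840 and Gm15148. Junb, a subunit of AP-1, was at 11.4 FPKM after saline and 61.6 after cocaine at 2 h, and Dusp1, a phosphatase of MAP kinases, at 5.85 and 24.2. For Nr4a3 the closest were Klf10 (distance 0.304), Per1 (0.352), Bhlhe40, Rasl11a and Nab2. Their log2 fold changes at 7 d, which the distance itself uses, lay between -0.03 and 0.19. Klf10 and Bhlhe40 are transcription factors, Per1 is a clock gene, and Nab2 a corepressor of EGR factors. For Nr4a2 they were Tnfrsf11b (distance 0.359), 4930522L14Rik (0.364), Osr1, Nupr1l and Gm14737, none of which is an activity gene of the list, and all of which were at low levels, between 0.661 and 3.04 FPKM. With a pseudocount of 1 in place of 0.1, 3 of the 5 neighbours of Nr4a1, 3 of Nr4a2 and 4 of Nr4a3 were kept. Cct6a (43.7 to 60.9 FPKM) and Gm13554 (6.70 to 9.69 FPKM) then came in for Nr4a2, so the low levels of its neighbours depend on the pseudocount.

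The tissue carried the markers of cortical neurons at high levels, with Slc17a7 between 466 and 532 FPKM, and all 9 were expressed in every group. Markers of layer 6b and claustral neurons, cells known for Nr4a2, summed to 27.4 FPKM after saline and 28.4 after cocaine at 24 h, with 4 of the 7 higher in cocaine and Gnb4, Nxph4 and Oprk1 lower, and to 24.8 and 27.4 at 2 h, where Ctgf was past 1.5-fold higher (log2 0.69). At 2 h all 5 markers over the minimum for counting were higher in cocaine. Nxph4 (log2 -0.51) and Oprk1 (-0.55), both under that minimum, were lower. Of 7 markers of midbrain dopamine neurons, another source of Nr4a2, 3 reached a mean of 1 FPKM, the transporter Slc6a3 lay between 0.014 and 0.067 FPKM, and En1 and Foxa2 were each listed at 0 in 5 of the 6 groups. Their sum, mostly Aldh1a1, was 28.3 FPKM after saline and 23.7 after cocaine at 24 h, and its part in the Nr4a2 difference was not tested. All 6 oligodendrocyte markers were lower in cocaine at 24 h (sum 802.8 against 668.6 FPKM), as were 5 of 6 microglial markers, and their part was not tested. The choroid plexus marker Ttr was lower in cocaine at 2 h (log2 -1.83) and 24 h (-0.66) and higher at 7 d (4.11). Kcnj13, the only other of the 6 listed choroid plexus markers over the minimum for counting, did not share this pattern. It had 0.30, 0.07 and 0.08 at 2 h, 24 h and 7 d. The part of these markers was not tested either. All 6 vascular markers were higher in cocaine at 2 h (median log2 0.19) and at 7 d (0.26), as Nr4a1 was. At 24 h, where Nr4a1 was higher too on the deposited scale, 3 of the 6 were higher (median -0.008). The part of the vascular markers was not tested. The sums of the striatal, microglial and vascular markers differed between saline and cocaine by less than 1.5-fold, and Adora2a, of the striatal list, was past 1.5-fold higher at 7 d (log2 0.68). Of the 5 striatal markers counted at 7 d, 4 were higher in cocaine and Rgs9 was lower (log2 -0.37). Drd1 (-0.16) and Drd2 (-0.12), under the minimum for counting, were lower too.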

How the data were processed

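RNA from the prefrontal cortex was sequenced as 12 libraries in 6 groups, with an RNA integrity number above 8 per the labels. The authors aligned trimmed reads with TopHat2 (2.0.12 per the submitters' processing notes), and Cuffdiff of Cufflinks (2.2.1) then gave the deposited FPKM, 1 per locus and group and pooled over libraries. The loci are on GRCm38 by the processing notes, whereas the paper's methods name another build. The deposited tables also hold the authors' test status, fold changes, test statistics, p and q values, which were not used. The first FPKM column belongs to the group that every row names C_2H, C_24H or C_7D, a name that resembles the submitters' code for cocaine. This column was taken as saline from the headings of the paper's supplementary tables: 378 of 456, 12 of 14 and 485 of 530 genes at 2 h, 24 h and 7 d matched within 2% in both columns, and 0 matched with the columns exchanged.

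Log2 fold changes were computed with a pseudocount of 0.1 in Python 3.11.15 with pandas 2.3.3 and numpy 2.4.6, and drawn with matplotlib 3.10.9. Loci were counted from a mean of 1 FPKM and called past 1.5-fold. Where a name stood on several loci, the longest was used, then the one with the higher mean. A listed gene without a locus of its own was read from a locus naming it with another gene, as for Elk1, Elk4 and Pgr. No test was made, as there is 1 value per group. Only the fold changes and the 1.5-fold calls were run on simulated data, in which every added change was larger than that limit. The genes named by rule were the 3 members, the 5 nearest to each, the retinoid X receptors and list members past 1.5-fold. Srf, Egr3, Bdnf, Th, Slc6a3, En1, Foxa2, Gnb4, Nxph4, Oprk1, Aldh1a1, Slc17a7 and the genes of shared patterns were chosen after their values were seen. The same holds for Kcnj13, Rgs9, Drd1, Drd2, Cct6a and Gm13554. The members and lists were chosen with earlier results of these data known. Alternatives were other pseudocounts, filters, limits, scalings and references. Loci are 1-based.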

Additional observations from a re-analysis of the deposited data

How the results depend on the processing

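Centring on the median of all loci, upper-quartile scaling and a pseudocount of 0.01 moved no log2 fold change of a member by 0.1 or more, the tolerance set because no spread between libraries is known, and left the counts of members past 1.5-fold as they were. A pseudocount of 1 gave 2.06, 0.71 and 1.202 for Nr4a1, Nr4a2 and Nr4a3 at 2 h, -0.51 for Nr4a2 and 0.50 for Nr4a3 at 24 h, and 0.26 for Nr4a2 at 7 d. The number of members past 1.5-fold higher was then 1 at 24 h and 0 at 7 d, and with a limit of 2-fold it was 0 at both. Scaling both columns of a table to the same sum gave 3.001, 1.80 and 2.34 in the 2 h table, 1.07, -0.39 and 1.08 in the 24 h table, and -0.90, -1.04 and -1.45 in the 7 d table, in the same order of genes, with 0 members past the limit at 7 d. Loci under 300 bases held at least 99.6% of each sum. The same scaling over loci of 300 bases or more, chosen after seeing the data, gave 0.77, -0.33 and 0.18 in the 2 h table, -2.87, -4.08 and -2.66 in the 24 h table, and 1.098, 0.86 and 0.38 in the 7 d table, with 1, 0 and 2 members past the limit. Single values reached 1.66e+10 FPKM among all loci and 1.2e+07 among these longer ones. The sums moved the median of all loci by 0.82, 0.37 and -1.49 with every locus and by -1.39, -3.52 and 0.49 with the longer ones. Relative to that median, Nr4a1 had 2.16 and 2.14 in the 2 h table, 0.69 and 0.64 in the 24 h table and 0.60 and 0.62 in the 7 d table under these scalings, and Nr4a2 had -0.76 and -0.57 at 24 h. With the median of the 3 saline values as the reference, also chosen after seeing the data, Nr4a1 at 24 h had 1.55, Nr4a2 at 24 h 0.029, Nr4a3 at 2 h 1.86 and Nr4a3 at 7 d -0.54. Without the filter on low values, 3.01% and 3.26% of all loci were past 1.5-fold higher at 24 h and 7 d, and with a minimum of 5 FPKM it was 1.15% at 7 d. No paired analysis was possible because each deposited FPKM is pooled over both libraries of its group. The error of each difference and the depth behind it are therefore unknown.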
